A study of Mus musculus with 3 samples.

Results

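Osteoclast-like cells were picked out by their transcripts from droplet libraries of the mouse knee joint lining (synovium) and its infrapatellar fat pad. Barcodes passed as cells from 500 genes upward and with no more than 10% mitochondrial UMIs (unique molecular identifiers, which count captured RNA molecules). A cell was called osteoclast-like when it held at least 20 UMIs of Acp5, at least 20 of Ctsk, at least 1 of Ocstamp, Dcstamp, Calcr or Oscar together, none of the endothelial gene Cdh5, and less than 0.2% of its UMIs in the fibroblast genes Col1a2, Col3a1 and Dcn. The rule chose 54 of 30197 cells in 3 libraries, and 52 of the 54 lay among the 12316 cells taken 1 week after joint surgery. The values below describe those 52 cells, set against the 1625 macrophages of the same library, which were cells with at least 10 UMIs of C1qa, C1qb and C1qc together.

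Osteoclasts are the cells that resorb bone. They arise from precursors of the monocyte and macrophage lineage under the cytokines M-CSF and RANKL, which act through the receptors Csf1r and RANK (Tnfrsf11a) and switch on the transcription factor Nfatc1, and the precursors then fuse into cells with several nuclei. A mature osteoclast seals itself to bone with a ring of actin and integrin, pumps acid into the sealed space with a vacuolar proton pump, and digests the exposed collagen with cathepsin K (Ctsk) and the metalloproteinase Mmp9, while tartrate-resistant acid phosphatase (Acp5) is its classical stain.

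The mice were wild type, and the study followed osteoarthritis induced by destabilisation of the medial meniscus (DMM), an operation that unsettles the knee. The 3 groups were control mice aged 2 months, mice operated on at 2 months of age and sampled 1 week later, and mice operated on at the same age and sampled 2 months later, so the last group was also older. Each group was 1 library that pooled tissue of 5 to 10 mice, digested with trypsin and then type I collagenase and sorted for live cells before 10x Genomics 3' v3 capture. Cells of a single pooled library are not replicates, so no difference was tested, no p-value is given, and surgery, time, age and library cannot be told apart. Intervals are exact 95% intervals that cover counting error only.

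The control, 1-week and 2-month libraries held 8099, 12316 and 9782 cells that passed the filters. Scrublet called 313, 507 and 460 of those cells doublets, and 0 of the 54 osteoclast-like cells were among them, so none was removed. The 3 pairs of libraries shared 28 to 33 barcode sequences, and no osteoclast-like cell's barcode recurred in another library. The 52 cells of the 1-week library were deep, with 8210 to 50706 UMIs and a median of 22097, against a median of 9718 in the macrophages. Their median of mitochondrial UMIs was 4.85%, against 2.85% in the macrophages. The osteoclast-like cells summed to 1191524 UMIs and the macrophages to 17264843.

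Nearly all osteoclast-like cells came from the 1-week library. They made up 0.422% of its cells (Clopper-Pearson 95% interval 0.315 to 0.553%). In the control library 0 of 8099 cells met the rule, which allows a share of up to 0.0370% at 3 cells (upper Clopper-Pearson bound 0.0455%). In the 2-month library 2 of 9782 did, a share of 0.0204% (0.00248 to 0.0738%). Acp5 alone did not separate the libraries. At least 20 Acp5 UMIs were found in 82, 103 and 62 cells of the control, 1-week and 2-month libraries, and adding the Ctsk condition left 23, 76 and 36. The condition on fusion and receptor genes then left 0 in the control library and 61 at 1 week. Many of the Acp5-rich cells were fibroblast-rich, with at least 1% of UMIs in the 3 fibroblast genes: 76, 18 and 49 cells, in that order.

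**Figure D1:**
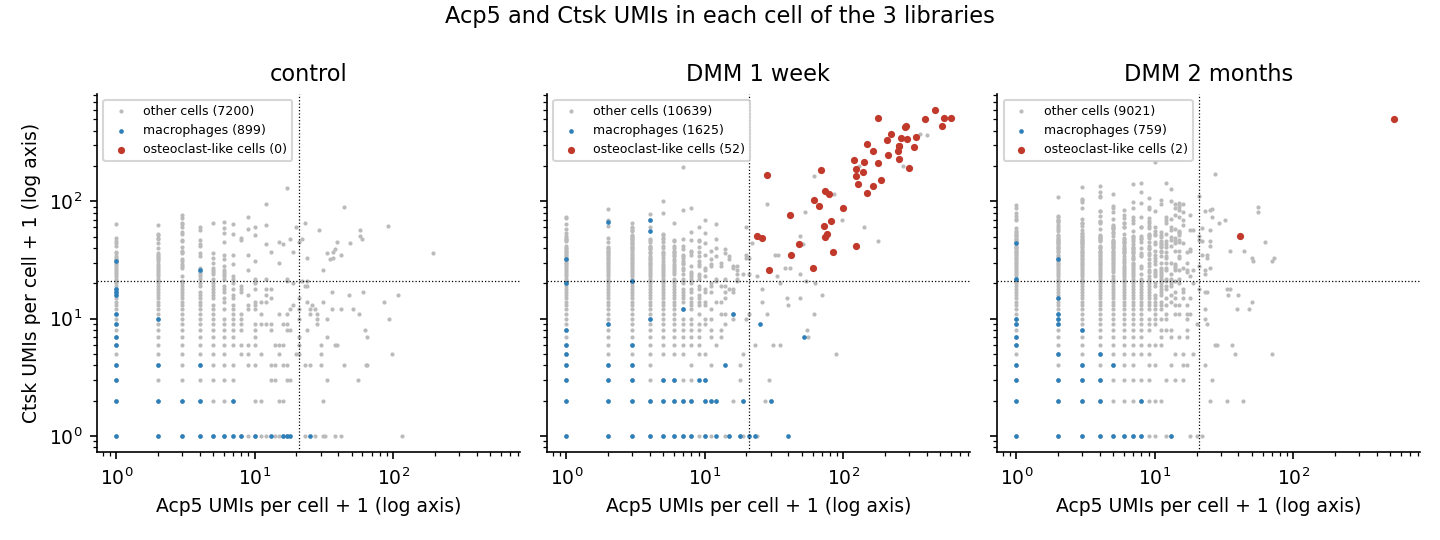
Acp5 UMIs plus 1 against Ctsk UMIs plus 1 for each cell of the control, 1-week and 2-month libraries, on log axes, with dotted lines at 20 UMIs. The 52 osteoclast-like cells of the 1-week library fill the upper right corner, where the control library has no such cell and the 2-month library has 2.

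The rule used these genes, so their levels are a description. Acp5 ranged from 23 to 595 UMIs per cell, with a median of 143.5, and Ctsk from 25 to 601, with a median of 186.5. Ocstamp and Dcstamp, membrane proteins required for osteoclast fusion, had UMIs in 48 and 38 of the 52 cells. Oscar, an immunoglobulin-like receptor of osteoclasts, had 29 UMIs over 13 cells and none in the macrophages. Calcr, the calcitonin receptor of mature osteoclasts, had no UMI in any of the 52 cells. The members closest to the limits held 23, 25 and 27 Acp5 UMIs or 25, 26 and 34 Ctsk UMIs. In the same library 4 cells failed on Acp5 alone, with 0 to 19 UMIs, and 8 failed on Ctsk alone, with 0 to 17 UMIs. None of those 12 cells held an Mmp9 UMI, but the 3 members with least Acp5 also held only 0 to 1. The cells that failed on Ctsk alone held 9 to 35 Atp6v0d2 UMIs, and those that failed on Acp5 alone 0 to 10. A further 8 cells failed for want of a fusion or receptor UMI, and they held 0 to 12 Mmp9 UMIs and 7 to 22 of Atp6v0d2. Another 3 failed on Cdh5 alone, with 2 to 18 Mmp9 UMIs, and 6 on fibroblast UMIs alone, with 0 to 185.

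Most osteoclast markers that the rule did not use were also high in these cells. Levels are given as CPM, the UMIs of a gene over all UMIs of a group of cells, scaled to a sum of 1000000. Mmp9 stood at 1775 CPM against 6.72 in the macrophages, Slc9b2 at 505 against 3.71, Atp6v0d2 at 1115 against 27.3, and Nfatc1 at 517 against 42.2. Macrophage genes were near absent: Adgre1, which encodes the macrophage marker F4/80, stood at 10.9 CPM against 509, and Mertk, Cd163 and Vsig4 had no UMI. Most osteoclast markers outside the rule were thus high and the macrophage markers low. Clcn7 and Tnfrsf11a were little above the macrophage level, and Siglec15 was near absent. All genes come from the cells that the rule chose, so the contrast with macrophages is a description throughout.

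**Figure D2:**
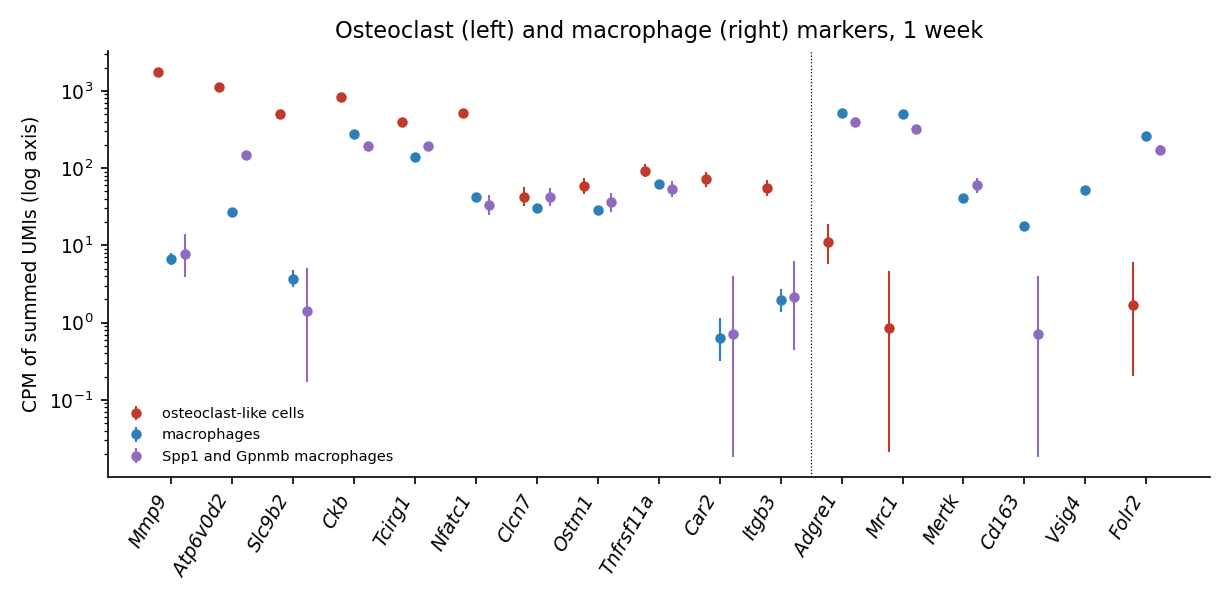
CPM on a log axis of 11 osteoclast markers and 6 macrophage markers outside the rule, in the osteoclast-like cells, the macrophages and the macrophages with Spp1 and Gpnmb of the 1-week library, with exact Poisson 95% intervals for counting error. The osteoclast-like cells lie above both macrophage groups for the drawn osteoclast markers other than Clcn7, which is level with the macrophages with Spp1 and Gpnmb. They lie below the macrophages for the 6 macrophage markers. Values of 0 and Siglec15, which was near absent, are not drawn.

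Of 10165 genes with at least 50 UMIs in both sums together, which are the genes called measured below, 945 (9.3%) were at least 2-fold higher in the osteoclast-like cells than in the macrophages and 1815 (17.9%) were at least 2-fold lower. The 13 genes that chose the cells are left out of those and all later counts, and the median gene had a log2 ratio of -0.11. The 15 highest genes with at least 200 UMIs were led by Mt3, a metallothionein, at 1065 CPM against 0.521 in the macrophages, a ratio of 2043 (1073 to 4478). Next came Mmp9 at 264-fold (219 to 321), Slc9b2, a sodium and proton exchanger, at 136-fold (105 to 179), Coq8a, a kinase-like protein of ubiquinone synthesis, at 52.8-fold, and Atp6v0d2, the osteoclast form of a proton pump subunit, at 40.8-fold (36.7 to 45.4). Mt3 was in 33 of 52 cells with 0 to 293 UMIs and a median of 3.5, so it was concentrated in part of them. Of the 52 cells, 2 also met the macrophage rule, with 11 and 12 C1q UMIs, and were kept out of the macrophages. With those 2 cells counted as macrophages, the log2 ratio of Mt3 was 10.02 in place of 10.997. Slc9b2 was in 51 cells with 0 to 51 UMIs and a median of 8, and Atp6v0d2 was in all 52 with 2 to 55 and a median of 20.5.

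The 15 also included Chchd10, a mitochondrial protein (34.5-fold), the myosin Myo10 (17.8-fold), Bdh2 (26.1-fold), Ppargc1b, a coactivator of mitochondrial biogenesis (23.1-fold), Nudt22 (18.7-fold), Jdp2, an AP-1 family repressor needed for osteoclast formation (18.6-fold), the phospholipid transporter Abcb4 (16.01-fold), the kinase Src (12.99-fold) and Nfatc1 (12.3-fold). Jdp2 was found in 51 of 52 cells and Nfatc1 in 50. On the mouse genome build GRCm38, Mmp9 lies at chr2:164940780-164955850, Mt3 at chr8:94152607-94154146 and Atp6v0d2 at chr4:19876841-19922605. Bdh2 (chr3:135281221-135304426) and Slc9b2 (chr3:135307700-135345387) are neighbours on one chromosome. A set of 375 macrophages, called depth-matched below, had UMIs within the range of most osteoclast-like cells. Depth within that range was not made equal. Against this set, Atp6v0d2 stood at a log2 ratio of 4.58 in place of 5.35 and Bdh2 at 3.88 in place of 4.70. Among the 32 osteoclast-like cells with at most 5% mitochondrial UMIs, the log2 ratio of Mmp9 was 6.74 in place of 8.05 and that of Mt3 9.75 in place of 10.997.

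Droplet libraries carry free RNA, so shares of cells were set at 1 depth by thinning each cell to 5000 UMIs. All 52 osteoclast-like cells and 1551 of the 1625 macrophages were deep enough. Mt3 was then found in 48.1% of osteoclast-like cells, 0.129% of macrophages and 0.269% of endothelial cells, which were read as a level of free RNA. Mmp9 was found in 61.5%, 2.00% and 0.875% of the same groups, and Slc9b2 in 78.8%, 0.903% and 0.875%. Nfatc1, at 92.3%, was also in 17.1% of macrophages and 22.6% of endothelial cells. For Nfatc1 the endothelial share was not read as free RNA, because whether those cells make it themselves was not tested. Acp5 and Ctsk were themselves found in 4.51% and 17.7% of the thinned endothelial cells, and in 21.1% and 42.1% of the 19 T cells deep enough to thin.

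Acid secretion by an osteoclast depends on the vacuolar proton pump, a rotary enzyme with a cytosolic V1 part that splits ATP and a membrane V0 part that moves protons. Of 18 pump genes with enough UMIs, 12 were at least 2-fold higher and 1 was lower than in the macrophages, with a median log2 ratio of 1.40, against 9.3% of all genes higher and a median of -0.11. The other 6 genes of the list had too few UMIs, and 5 of them had none in the osteoclast-like cells. Summed over the 24 genes of the list, the pump took 15717.7 CPM in the osteoclast-like cells and 5490 in the macrophages. Single osteoclast-like cells ranged from 6843 to 25547 CPM with a median of 15020, so each lay above the summed level of the macrophages.

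The subunits did not move as 1 block. Subunits of V1 were higher, with Atp6v1d at 628 CPM against 126 (5.00-fold), Atp6v1b2 at 730.2 against 186 (3.92-fold) and the catalytic Atp6v1a at 853 against 336 (2.54-fold). In V0, the ring subunit Atp6v0c stood at 4634 against 1575 (2.94-fold). Tcirg1, the a3 subunit that carries the pump to the ruffled border, stood at 390.3 against 138 (2.83-fold), whereas Atp6v0a1, the a1 form, stood at 8.39 against 65.5 and was 7.80-fold lower (4.22 to 16.3). The d subunits differed in the same way: Atp6v0d2 was 40.8-fold higher, whereas Atp6v0d1, the widely expressed form, stood at 168 against 173 (ratio 0.971). The accessory subunit Atp6ap1 was level at 186 against 186, and Atp6ap2 stood at 648 against 206.

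**Figure D3:**
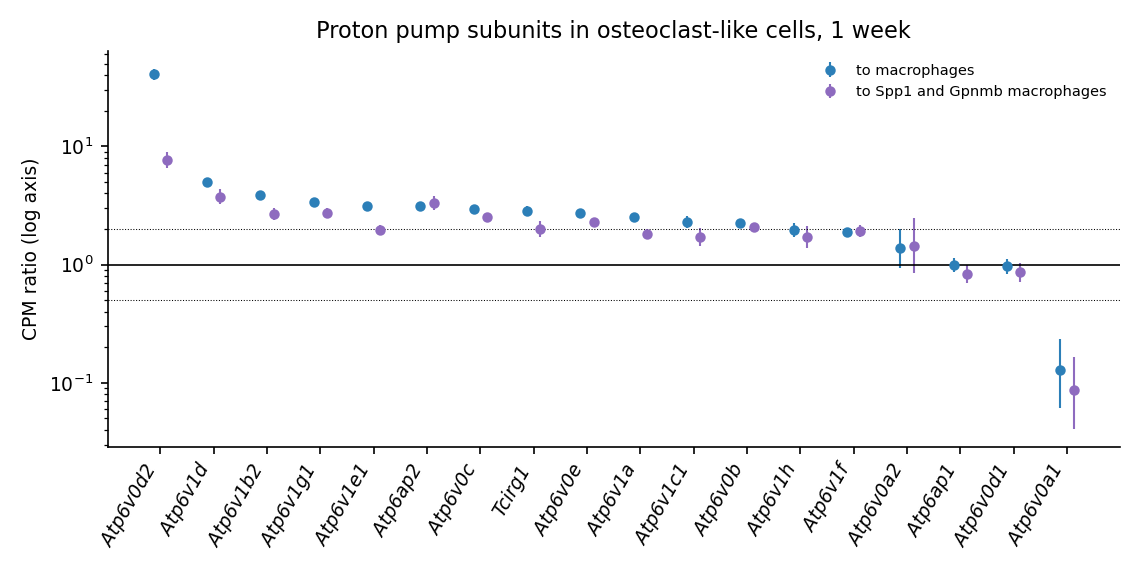
CPM ratio, on a log axis with 95% intervals for counting error, of the 18 measured proton pump genes in osteoclast-like cells over macrophages and over macrophages with Spp1 and Gpnmb. Genes run from left to right by falling ratio to macrophages. Atp6v0d2 lies at the far left and highest, the other subunits called higher than in macrophages lie between 2-fold and 5.00-fold, and Atp6v0a1 lies below 1 in both comparisons.

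Many lysosomal genes carry an E-box of the CLEAR type, here searched as TCACGTGA (a palindrome, so both strands read alike), and AP-1 factors bind sites of the form TGANTCA, also searched on both strands. The windows ran from 250 bases before to 50 after the start given by RefSeq on GRCm38.p6. TCACGTGA was present in 3 of the 18 matched pump promoters (16.7%), those of Atp6v1a, Atp6v0d1 and Atp6v0e, and in 0.962% of all 27025 promoters. It was also in 1 of the 11 matched promoters of acid, ion and vesicle partners (9.09%), that of Clcn7. None of the 22 matched promoters of the 30 genes named as highest or lowest held it. Atp6v0d1 and Clcn7 were not at least 2-fold higher. TGANTCA was present in 2 of the 11 matched promoters of acid, ion and vesicle partners (18.2%), in 2 of the 22 matched promoters of the 30 genes named as highest or lowest (9.09%), and in 7.91% of all promoters. The pump list had 1 such promoter of 18 (5.56%), that of Atp6v0a1, the lower subunit, and the 2 of 22 were Coq8a, a high gene, and Folr2, a low one. Such matches describe the letters of these windows and show no binding. The sequences below are the 150 bases before the start, 5′ to 3′ on the gene's strand, with the motif in capitals. They show the match of a pump subunit, those of 3 genes that were high in the osteoclast-like cells, and that of Folr2, which was low. Their positions are chr16:44139260-44139409 on the minus strand for Atp6v1a, chr1:74125391-74125540 on the plus strand for Rufy4, chr9:37255739-37255888 on the minus strand for Slc37a2, chr1:180193486-180193635 on the minus strand for Coq8a and chr7:101845332-101845481 on the minus strand for Folr2.
Atp6v1a: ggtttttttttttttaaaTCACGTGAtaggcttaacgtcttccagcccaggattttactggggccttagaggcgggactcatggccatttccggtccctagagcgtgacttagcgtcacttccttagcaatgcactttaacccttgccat
Rufy4: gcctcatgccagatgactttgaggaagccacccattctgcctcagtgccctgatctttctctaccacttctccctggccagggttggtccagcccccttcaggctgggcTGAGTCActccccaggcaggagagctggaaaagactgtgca
Slc37a2: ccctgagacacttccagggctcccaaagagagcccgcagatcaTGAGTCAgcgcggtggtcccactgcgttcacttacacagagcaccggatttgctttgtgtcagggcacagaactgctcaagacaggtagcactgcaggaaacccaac
Coq8a: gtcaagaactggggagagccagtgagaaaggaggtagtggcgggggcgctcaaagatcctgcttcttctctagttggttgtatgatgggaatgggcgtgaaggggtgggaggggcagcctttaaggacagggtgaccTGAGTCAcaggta
Folr2: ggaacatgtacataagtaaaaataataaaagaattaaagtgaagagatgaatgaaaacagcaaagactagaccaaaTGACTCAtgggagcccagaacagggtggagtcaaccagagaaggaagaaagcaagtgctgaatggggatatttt

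Partners of the pump were uneven. Of 13 measured genes, 7 were higher and 3 lower, with a median log2 ratio of 1.04. Among all genes 9.3% were higher and 17.9% lower, so the lower count was near the share of all genes. Car2, the carbonic anhydrase that supplies protons, stood at 71.3 CPM against 0.637 (112-fold, 59.5 to 233), with UMIs in 23 of 52 cells and at most 13 in a cell. Rufy4, a vesicle adaptor of osteoclasts and dendritic cells, had 133 UMIs over 35 osteoclast-like cells and 1 UMI in all 1625 macrophages. Snx10, a sorting nexin needed for osteoclast function, stood at 602 against 75.4 (7.98-fold), the chloride and bicarbonate exchanger Slc4a2 at 138 against 26.6 (5.21-fold) and the sugar phosphate transporter Slc37a2 at 490.1 against 178 (2.75-fold). The chloride channel of the ruffled border was closer to the macrophage level, with Clcn7 at 42.8 against 30.5 (1.40-fold, 1.03 to 1.88) and its partner Ostm1 at 58.7 against 28.5 (2.06-fold). The 3 lower genes included the lysosomal membrane proteins Lamp1, at 102 against 1128 (11.1-fold lower), and Lamp2, at 52.0 against 442 (8.50-fold lower). With the 32 cells of at most 5% mitochondrial UMIs, 4 partners were higher in place of 7, of 11 measured.

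Most proteases were lower than in the macrophages. Of 17 measured genes besides Ctsk, 2 were higher, 11 were lower and the median log2 ratio was -2.04. Among all genes 9.3% were higher and 17.9% lower, so the higher count was near the share of all genes. The 2 higher genes were Mmp9 and Mmp14, the membrane-bound collagenase, at 346 CPM against 142 (2.44-fold). Mmp9 was in 40 of 52 cells and ranged from 0 to 342 UMIs with a median of 6.5. The broad cathepsins of phagocytes were low, with Ctsb at 677 against 4554 (6.72-fold lower), Ctsl at 168 against 1249 (7.44-fold lower) and Ctss at 382 against 3115 (8.16-fold lower). The collagenase Mmp13 had 6 UMIs in the 52 cells.

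The receptors that start the osteoclast programme were no more than slightly above the macrophage level. Tnfrsf11a (RANK) stood at 92.3 CPM against 61.3 (1.51-fold, 1.23 to 1.83) and was found in 45 of 52 cells. Csf1r stood at 759 against 581 (1.31-fold, 1.22 to 1.40). Of 21 measured genes of RANK and M-CSF signalling, 1 was higher, the kinase Src at 94.8 against 7.30 (12.99-fold, 9.99 to 16.9), and 3 were lower, shares below the 9.3% and 17.9% of all genes. The lower genes were Traf3, the kinase Map3k14 and the adaptor Blnk. Traf6, the adaptor that RANK recruits, stood at 18.5 against 14.8.

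Osteoclast transcription factors went both ways. Of 21 measured, 6 were higher, 5 lower and 10 neither, with a median log2 ratio of -0.34, against 9.3% higher and 17.9% lower among all genes. Thinned cells gave 3 lower and a median of 0.56. The 6 higher factors were Nfatc1, Jdp2, Ppargc1b, Prdm1, Fosl2 and Esrra. Prdm1, a repressor of the genes that hold back osteoclasts, stood at 147 CPM against 31.6 (4.64-fold), and Fosl2, an AP-1 factor, at 319.8 against 105 (3.05-fold). Fos, the AP-1 factor that precedes Nfatc1, was lower at 309 against 726, as was Jun at 76.4 against 330. Spi1 and Mitf, factors shared with macrophages, stood at 655 against 503 and 81.4 against 53.4. The brakes on osteoclast formation were low together, with 9 of 9 measured genes at least 2-fold lower against 17.9% of all genes. Among them, Irf8 stood at 8.39 against 134 (15.99-fold lower, 8.68 to 33.4) and Nfe2l2 at 43.6 against 345.

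The adaptors of immunoreceptor co-stimulation were nearer the macrophage level than most of their receptors. Tyrobp (DAP12) stood at 2102 CPM against 2346, and Fcer1g at 982 against 2503 (2.55-fold lower). Of 15 measured genes, 12 were lower and 1 was higher, against 17.9% and 9.3% of all genes. The higher gene was the inhibitory lectin Clec12a at 514 against 243 (2.12-fold). Trem2, the partner of Tyrobp on macrophages and osteoclasts, stood at 233 against 887 and was lower. Fcgr3 had 3 UMIs against 394 CPM in the macrophages. Siglec15, an osteoclast lectin, had 3 UMIs in 3 cells and none in the macrophages. Reads of Fc receptor and paired receptor genes can be split or lost between close paralogs.

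Genes of fusion and of attachment were mixed. Of 19 measured fusion genes outside the rule, 4 were higher and 8 lower, against 9.3% and 17.9% of all genes, and thinned cells gave 2 higher and 9 lower. The higher ones included the chemokine receptor Ccr1, at 295 CPM against 61.5 (4.80-fold), and the haematopoietic GTPase Rac2, at 484 against 173 (2.79-fold). Cd9, a tetraspanin, stood at 443 against 339.9, and Cd81, another, at 18.5 against 158. Of 26 measured adhesion and actin ring genes, 7 were higher and 3 lower. Itgb3, the beta subunit of the osteoclast vitronectin receptor, stood at 55.4 against 1.97 (28.1-fold, 18.3 to 43.9) in 25 of 52 cells, while its partner Itgav stood at 178 against 104. Itgb5, the alternative beta subunit of macrophages, was lower at 20.98 against 153. The podosome genes Rhou (11.3-fold), Cttn (6.18-fold), Dock5 (3.44-fold) and Actn1 (3.25-fold) were higher. Among genes of secreted and coupling factors, 2 of 15 were higher and 8 lower, a higher share near the 9.3% of all genes, and the higher count was 0 to 4 over the alternatives. Sema4d, which restrains osteoblasts, stood at 151 against 71.0 (2.13-fold), the sphingosine kinase Sphk1 was 2.07-fold higher, and Igf1 stood at 8.39 against 277 (33.0-fold lower). Bmp6, Wnt10b and Slit3, secreted factors credited to osteoclasts, had no UMI in the 52 cells.

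Genes of mitochondrial energy supply were higher in nearly all cases. Of 31 nuclear genes of oxidative phosphorylation, 29 were at least 2-fold higher and none was lower, with a median log2 ratio of 1.66. Among all genes 9.3% were higher and 17.9% lower. The remaining pair, Ndufa1 and Ndufa2, stood at 1.83-fold and 1.52-fold. Cyc1, cytochrome c1, was at 497 CPM against 83.5 (5.95-fold, 5.40 to 6.56), and Cox4i1, a cytochrome oxidase subunit, at 2263 against 955 (2.37-fold). Enzymes of the citrate cycle were higher too, with Idh3a at 5.96-fold and Mdh2 at 4.95-fold. The osteoclast-like cells were deeper and richer in mitochondrial UMIs than the macrophages. Against the depth-matched macrophages 29 of the 31 genes were again higher (median log2 ratio 1.51). So were 29 with the 32 cells of at most 5% mitochondrial UMIs (median 1.60).

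Iron, creatine and sugar handling also differed. Of 18 measured genes of creatine, iron and citrate handling, 9 were higher and 4 lower, against 9.3% and 17.9% of all genes. The transferrin receptor Tfrc stood at 222 CPM against 20.7 (10.7-fold), whereas the iron exporter Slc40a1 had no UMI against 50.1 CPM (at least 19.9-fold lower, with the count raised to 3 UMIs). The ferritin chains Fth1 and Ftl1 were 2.99-fold and 2.37-fold lower. Ckb, brain creatine kinase, a known osteoclast enzyme, stood at 826 against 276 (2.99-fold, 2.79 to 3.20), and the creatine transporter Slc6a8 was 3.36-fold higher. Of 16 glycolytic genes 5 were higher and 1 lower, with Aldoa at 2.41-fold and Hk2 at 2.67-fold. Against depth-matched macrophages 3 of the 16 were higher, beside 661 of all 8445 genes measured there.

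Macrophage identity was low in nearly every gene examined. Of 22 measured identity genes, 21 were at least 2-fold lower and none was higher, with a median log2 ratio of -5.08. Among all genes 17.9% were lower and 9.3% higher. The exception was Cd68, a lysosomal protein shared with osteoclasts, at 738 CPM against 1030.0. The lowest named genes included Pf4 at 25.2 against 2539 (101-fold lower, 70.6 to 149), Cxcl2 at 34.4 against 2288 (66.5-fold lower, 49.0 to 92.7), Mrc1, the mannose receptor, with 1 UMI in the 52 cells against 501 CPM (597-fold lower, 107 to 23598), and Ccl8, a chemokine, with 1 UMI against 694 CPM (827-fold lower, 148 to 32654). The folate receptor Folr2, the complement receptor C5ar1, the Fc receptor Fcgr1, the chemokines Ccl2 and Ccl4, and Fcrls, Ly86, Rgs1 and Pmp22 had 1 to 4 UMIs each in the 52 cells, against 179 to 289 CPM in the macrophages. These genes of tissue macrophages were therefore close to unseen at the summed depth of the osteoclast-like cells. Apoe stood at 856 against 23069 (26.9-fold lower). Lyz2 stood at 468 against 19492 (41.6-fold lower), and 1 cell held 275 of its 558 UMIs. Without that cell the level was 244 CPM. The C1q genes, which chose the macrophages, had a median of 1 UMI per osteoclast-like cell against 110, and 25 of the 52 cells had none.

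Inflammatory genes were low in the sum against the macrophages as a whole, where 17.9% of all genes were lower and 9.3% higher. Interferon response genes were lower in 12 of 14, dissociation-linked early genes in 12 of 16 and antigen presentation genes in 9 of 14, with none higher in the 3 lists. Against the macrophages with Spp1 and Gpnmb described below, 15.3% of all genes were lower and 14% higher. There 2 of 11 antigen presentation genes were lower, near that share, and none higher, and 3 of 7 interferon genes were lower and 1 higher. Cd74, the class II chaperone, was 6.76-fold lower in the sum, and 27 of the 52 cells held none after thinning. Before thinning its mean per cell was 13.9 UMIs against 43.5, but its median was 2 against 1 in the shallower macrophages. Class II UMIs had medians of 3.5 and 2. The lower sum was therefore not a difference between typical cells. Of 11 monocyte genes 9 were lower, including Ly6c2, with no UMI against 44.2 CPM. The exception was S100a4, a calcium-binding protein, at 7667 CPM against 2568 (2.99-fold). Most markers of other cells were low. Neutrophil genes summed to 73.9 CPM against 1523, fibroblast genes to 684 against 1143, osteoblast genes to 6.71 against 8.57, with 7 of the 10 osteoblast genes at 0. In the 11 of 13 such lists with a measured gene, no gene was at least 2-fold higher. Schwann and muscle genes, none with enough UMIs to be measured, summed to 16.8 CPM against 3.42, of which the muscle creatine kinase Ckm gave 14 UMIs over 12 cells. Their part in the creatine result was not tested.

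**Figure D4:**
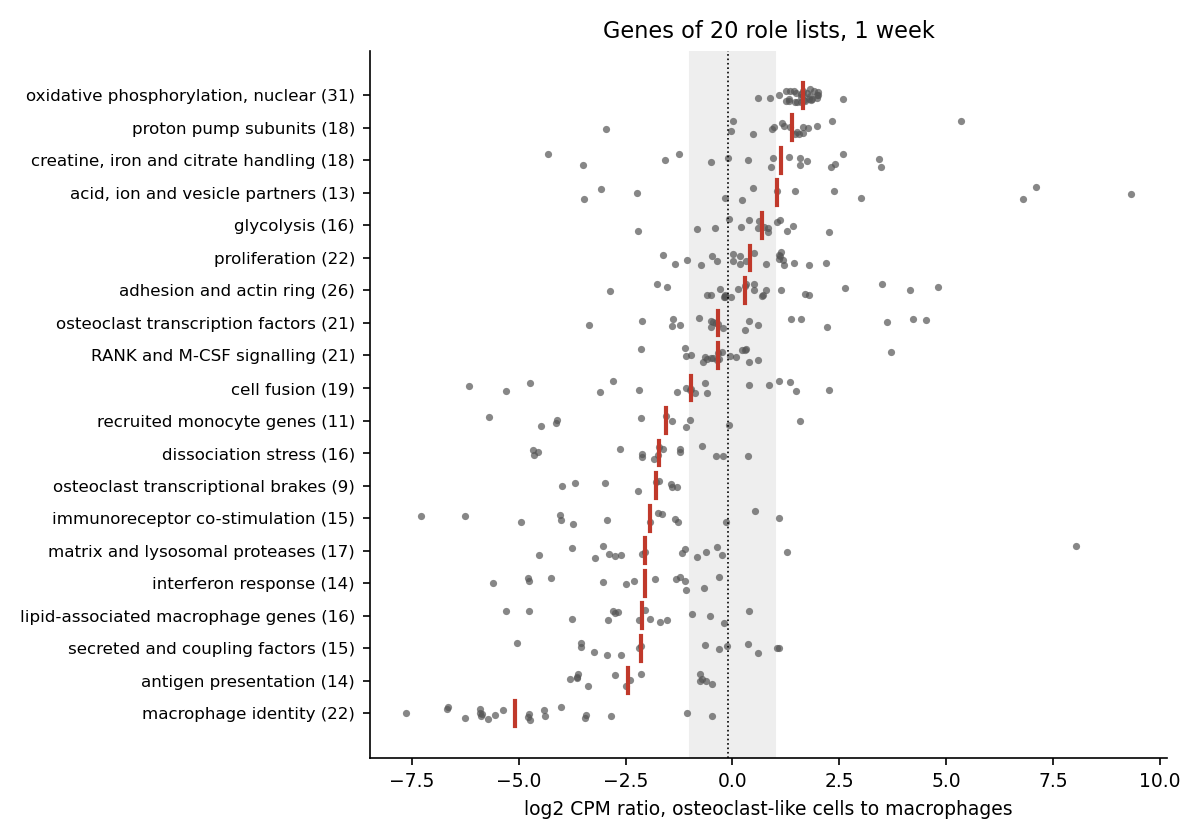
Log2 CPM ratio of osteoclast-like cells over macrophages for each measured gene in 20 role lists, with the list median as a red bar, the band within 2-fold in grey and the median of all genes as a dotted line. The proton pump and oxidative phosphorylation lists sit to the higher side, and macrophage identity, transcriptional brakes and interferon response to the lower side.

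Macrophages with Spp1 and Gpnmb, a lipid-associated kind, were compared because they share lysosomal genes with osteoclasts. There were 93 of them at 1 week, with at least 10 UMIs of each of the 2 genes and a median of 13849 UMIs per cell. Against them, 759 of 5422 measured genes (14%) were higher in the osteoclast-like cells and 829 (15.3%) lower, with a median log2 ratio of 0.07. Several osteoclast genes were as far from these cells as from macrophages in general, with Mmp9 at 7.80 CPM, Slc9b2 at 1.42, Nfatc1 at 33.3 and Mt3 at 0. Atp6v0d2 was nearer, at 146 CPM, a ratio of 7.64 (6.59 to 8.89). Clcn7 was level, at 42.8 against 42.5. Of 14 measured lipid-associated genes 12 were lower in the osteoclast-like cells and none higher, with Fabp5 at 195 against 5117 and Apoe at 856 against 35317. Spp1, osteopontin, one of the 2 genes that chose these macrophages, stood at 446 against 10746. The pump list had 9 of 18 higher and the oxidative phosphorylation list 29 of 31, and Csf1r was 2.23-fold higher.

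The 52 cells varied widely in resorption genes. After thinning to 5000 UMIs, Mmp9 ranged from 0 to 72 with a median of 1.5, and the 13 cells with most of it held 83.1% of its UMIs. Mt3 ranged from 0 to 39, with 87.6% in its 13 highest cells, whereas Acp5 ranged from 3 to 101 with a median of 32 and 47.5% in its 13 highest cells. Across the 52 cells of this 1 library, at equal depth, Spearman's rho was 0.81 for Ctsk and Mmp9, 0.78 for Acp5 and Ctsk, 0.80 for Ckb and Ctsk, and 0.85 for Acp5 and the summed pump genes. The rho of Nfatc1 and Mmp9 was 0.24. These values describe cells that share a library and were chosen on Acp5 and Ctsk.

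The 20 cells without Mmp9 after thinning and the 13 with most (at least 12 UMIs, median 27) show the 2 ends. Median Acp5 was 21 and 57 UMIs, Ctsk 22.5 and 79, Ckb 1 and 7, and Mt3 0 and 10. Nfatc1 stood at 2 and 4. Pump genes summed to medians of 61.5 and 97 UMIs, nuclear oxidative phosphorylation genes to 90 and 131, and mitochondrial genes to 201.5 and 300, while ribosomal protein genes summed to 1257.5 and 990. The original depth of the ends was near alike, at medians of 20833.5 and 23571 UMIs. The cells with most Mmp9 therefore also held more of the other resorption genes and more mitochondrial RNA. These ends overlap with cell division, described below. Of the 11 dividing cells, all but 2 lay among the 20 cells without Mmp9. None lay among the 13, since Mmp9 reached at most 6 UMIs in a dividing cell.

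**Figure D5:**
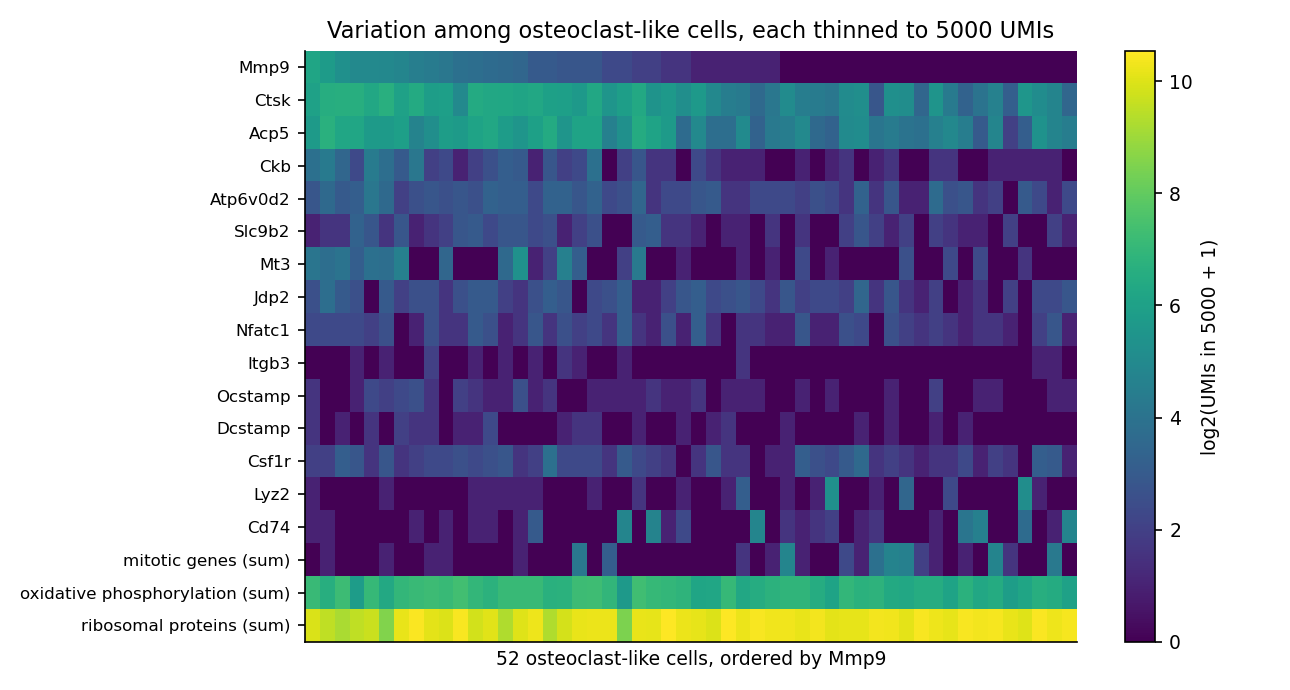
Heat map of log2 (UMIs in 5000 plus 1) for selected genes in the 52 osteoclast-like cells of the 1-week library, ordered by Mmp9. Acp5, Ctsk and Ckb are brighter (higher) toward the Mmp9-rich end on the left, and Mt3 is found mostly in that part, while Nfatc1 is spread over the cells.

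Some osteoclast-like cells carried transcripts of cell division. Of 22 measured proliferation genes 9 were higher than in macrophages and 3 lower, against 9.3% and 17.9% of all genes. The higher ones were genes of mitosis, such as Ube2c, which marks mitotic proteins for destruction, at 174 CPM against 37.9 (4.59-fold), and Top2a at 2.12-fold, while the replication gene Mcm3 was 3.07-fold lower. In 11 cells (21.2%) 11 mitotic genes had 7 to 236 UMIs together (median 53), whereas the other 41 cells held at most 4. That limit was chosen after the values were seen. Among macrophages 106 (6.52%) passed it, and at 5000 UMIs the shares were 15.4% (6.88 to 28.1) and 4.64% (3.65 to 5.81). Against depth-matched macrophages 1 of the 22 genes was higher and 7 were lower, so the direction of the list depended on which macrophages were compared. With all cells thinned to 5000 UMIs, 6 were higher and 2 lower (median log2 ratio 0.40). Leaving out the 11 cells lowers the list by the way they were chosen and is no check of it.

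The 11 dividing cells held less of the resorption genes. At 5000 UMIs their median Acp5 was 21 UMIs against 40 in the other 41 cells, and Ctsk was 33 against 51, with 10 of the 11 below the median of the others for each gene. Mmp9 was found in 2 of the 11 and in 30 of the 41, so this contrast shares cells with that of the Mmp9 ends. Whether either contrast holds apart from the other was not tested. The depth before thinning was near alike, at medians of 23694 and 22027 UMIs. Nfatc1 had a median of 2 UMIs in both sets, and S100a4 a median of 40 in both. In summed counts Mmp9 stood at 387 CPM in the dividing cells and 2204 in the others, and Acp5 at 5406 and 8631.

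The 2 osteoclast-like cells of the 2-month library differed from each other. The first, with 49756 UMIs, held 534 of Acp5, 502 of Ctsk, 73 of Mmp9, 62 of Atp6v0d2 and 60 of Nfatc1, with 4 mitotic UMIs. The other, with 64163 UMIs, held 40 of Acp5, 50 of Ctsk, none of Mmp9, 6 of Atp6v0d2 and 18 of Nfatc1, with 360 mitotic UMIs and 7 of C1q. With 2 cells no level of that library is given.

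The ligands of osteoclast formation were read in the fibroblast-rich cells, 3584, 6554 and 5120 in the control, 1-week and 2-month libraries. Tnfsf11, which encodes RANKL, stood at 0.998, 18.9 and 2.97 CPM in that order, so the 1-week library was 18.9-fold above control (14.1 to 25.9) and the 2-month library 2.97-fold (2.16 to 4.16). Tnfrsf11b, the decoy receptor osteoprotegerin, stood at 7.75, 7.53 and 10.2. Csf1, which encodes M-CSF, was lowest in the 1-week library, at 218, 45.0 and 126, and Il34, the other ligand of Csf1r, followed the same order at 28.7, 7.45 and 15.7. These are single libraries, so the differences have no replicate check.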

How the data were processed

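The authors deposited 1 matrix of raw UMI counts a library, with 32285 genes by barcodes and no normalisation. Cell Ranger 5.0.0 (control and 1 week) and 5.0.1 (2 months) wrote them, per the file headers, while the submitters' processing notes name version 6.0.1 and build mm10. The libraries held 9003, 13986 and 10799 barcodes with 96782789, 179561680 and 159333121 UMIs.

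The rule for osteoclast-like cells, the gene lists and the comparisons were chosen with earlier results of these data known. UMIs were summed over the cells of a group and given as CPM with exact Poisson intervals, ratios with exact conditional binomial intervals and shares with Clopper-Pearson intervals (scipy 1.17.1). A gene was measured with at least 50 UMIs in both sums together and counted as higher or lower at 2-fold. Sums under 3 UMIs were raised to 3 in the counts and medians. Printed ratios use the UMIs as counted, except against 0, where 3 UMIs give a lower bound. Named genes were the 15 highest and 15 lowest with at least 200 UMIs and at least 50 CPM in 1 of the sums, plus genes of the lists. Some genes that this rule takes are not reported here. Thinning to 5000 UMIs used a fixed seed. Scrublet (scanpy 1.11.5) marked doublets library by library, and none was an osteoclast-like cell. Gene positions came from GENCODE on GRCm38 (32235 genes located) and promoters from RefSeq. Counts at the 3' end do not allow levels of different genes to be compared. The scripts were tested on simulated data. Alternatives were other UMI limits, mitochondrial limits, macrophage sets, scalings and UMI filters.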

Additional observations from a re-analysis of the deposited data

Results flagged for a closer look

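In the 1-week library 7 further barcodes met every condition of the rule except the limit on mitochondrial UMIs, and none did so in the control or 2-month library, which is what marked them for a closer look. They held 10.9 to 13.01% mitochondrial UMIs. Acp5 ranged from 89 to 435 UMIs with a median of 196, Ctsk from 63 to 502 with a median of 131, and Mmp9 from 20 to 388 with a median of 119, so each held Mmp9, against 40 of the 52 cells under the limit. The limit removed 7 of 59 such barcodes (11.9%, 4.91 to 22.9%) and 11 of 1636 macrophages (0.672%, 0.336 to 1.20%).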

How the results depend on the processing

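Results were recomputed under 17 alternatives, 2 of them added after seeing the data (without the 11 dividing cells, and with up to 20% mitochondrial UMIs). The 37 genes recomputed (the 30 highest and lowest and the fixed markers) kept the sign of their log2 ratio in every alternative. With at most 5% mitochondrial UMIs the rule left 32 cells, and 4 acid, ion and vesicle partners were higher. Genes with at least 200 UMIs gave 561 higher genes, because fewer were tested, and 4 adhesion genes. Thinned cells gave 1151 lower genes and 4 adhesion genes. Depth-matched macrophages gave 3 higher glycolytic genes. The proliferation list turned, with 1 gene higher against depth-matched macrophages. It had 0 without the dividing cells, which their choice fixes. The cause was not tested for the other changes. Each list was recomputed in its main direction, and the remaining 374 values for counts and lists lay within 1.5 times of those reported. Counts in the other direction and medians moved further: secreted factors higher 0 to 4, and the median log2 ratio of acid partners 0.29 with at most 5% mitochondrial UMIs and 0.49 with at least 200 UMIs. With the median gene ratio set to 1, 1156 genes were higher and 1612 lower, and with genes of at least 1 UMI 1317 and 1815. No paired analysis was possible because each group is 1 library. Depth limits low genes: Siglec15, Oscar and Calcr rest on 3, 29 and 0 UMIs in 1191524.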
